A study of Mus musculus with 12 samples.

Results

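The 39 Hox genes of the 4 mouse Hox clusters were examined in RNA sequencing data from 12 whole embryos at embryonic day 9.5 (E9.5). They were taken from the gene table as every protein-coding gene whose symbol is Hoxa, Hoxb, Hoxc or Hoxd followed by a number, which gave 39 of the 22046 protein-coding genes among 54532 rows. The rule used names alone and no measured value. HoxA holds 11 genes (chromosome 6, 52155590 to 52260880, GRCm38), HoxB 10 (chromosome 11, 96194316 to 96368256), HoxC 9 (chromosome 15, 102921103 to 103036852) and HoxD 9 (chromosome 2, 74668310 to 74765142). Hoxd4 stands in the table under 2 identifiers, and the second one had 1 count in all 12 libraries and was set aside.

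The tested embryos were 6 KO embryos, labelled TRAF7-*/-*, in which a floxed Traf7 gene had been removed from the whole body with the E2a-Cre transgene. Their line goes back to 1 ES cell clone in which 2310061I04Rik, too, had lost a stretch of intron, so the effects of the 2 lesions cannot be told apart. The controls were 6 wild type (WT) embryos of the same age. All 12 were of the C57BL6/J strain, each gave 1 library, and the labels do not name litters, so p-values speak for the spread among these 12 embryos alone. The series title and design text speak of brain, whereas every sample label gives an embryo, and the markers side with the labels: primitive globin, somite and limb bud genes were present in all 12 libraries, Opalin of mature oligodendrocytes had no count and Mog of myelin stayed at 0.318 CPM or less. Traf7 was at 13.1 to 19.3 CPM in KO and 114.4 to 144.2 CPM in WT, and 2310061I04Rik at 1.13 to 6.38 CPM in KO and 7.19 to 15.8 CPM in WT. CPM values here are counts scaled to library size with TMM factors.

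Hox genes encode homeodomain transcription factors that give cells their position along the head to tail axis. Genes with the same number in different clusters descend from 1 ancestor and form a paralog group. Within a cluster the genes lie in the order in which they are used: low-numbered (anterior) genes are switched on first and reach into the hindbrain, and high-numbered (posterior) genes follow in the trunk, the lumbar and sacral region, the tail bud and the limb buds. At mid-gestation the hind end of the embryo is still growing, so the last genes of each cluster are the last to be switched on.

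Before any comparison, 4 libraries stood apart in their Hox counts. Hox genes took 0.0136% of all counts in KO2 and 0.0166% in KO3, 0.0379% in KO6 and 0.0447% in WT5, against 0.0582% to 0.0656% in KO1, KO4 and KO5 and 0.0533% to 0.0590% in the remaining WT embryos. They were also low in Pitx1, which marks the hindlimb field, with 15.4 CPM in KO2, 13.4 CPM in KO3 and 15.8 CPM in KO6, against 12.3 CPM in WT5, and with 40.9 to 52.6 CPM in the other KO and 47.5 to 65.2 CPM in the other WT embryos. The 3 limb bud markers summed to 23.9 CPM in KO2, 15.4 CPM in KO3, 29.3 CPM in KO6 and 32.5 CPM in WT5. That sum was 38.0 to 40.6 CPM in the other KO and 36.1 to 43.2 CPM in the other WT embryos. Over the 4 somite markers the summed level was 47.5 CPM in KO2 and 78.0 CPM in KO3, against 100.9 to 138.2 CPM in the other KO and 122.4 to 148.2 CPM in WT embryos. Over the 4 heart markers KO3 had 10.1 CPM, with Nppa at 0, against 288.3 to 593.7 CPM in the other KO and 243.8 to 368.7 CPM in WT embryos. Over the 7 yolk sac endoderm markers the sum was 2.50 CPM in KO2 and 1.37 CPM in KO3, where Afp and Apoa4 had no count, against 49.7 to 424.8 CPM in the other KO and 24.0 to 270.8 CPM in WT. The 4 neural markers summed to 219.9 to 342.0 CPM in KO and 207.4 to 261.3 CPM in WT, highest in KO3. Library totals were 16675204 to 21917571 counts and were not low in these 4 embryos. What part the tissue make-up or the extent of the collected embryo had in the Hox values was not tested. In bulk RNA, fewer cells that use a gene and less RNA per cell cannot be told apart.

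The WT embryos give the reference ladder. Levels of different genes were compared per length, as the deposited FPKM (fragments scaled by gene length and library size). Hoxb9, a trunk gene, was far above all others at 40.4 ± 3.06 FPKM (SD, n = 6), followed by Hoxb8 at 12.98 ± 1.17, and this step is the sole one of the 38 between neighbours in the order at which the ranges of the 6 embryos did not overlap. Below them Hoxc10 (11.4 ± 6.51), Hoxb6 (9.45 ± 0.62), Hoxa5 (9.15 ± 0.93), Hoxb4 (8.89 ± 0.91), Hoxb1 (8.88 ± 3.07), Hoxc4 (8.33 ± 0.59) and Hoxd9 (8.12 ± 1.08 FPKM) formed a run in which no neighbour stood out from the next. At the low end Hoxd3 (0.68 ± 0.11), Hoxd12 (0.40 ± 0.47), Hoxd4 (0.30 ± 0.08), Hoxc12 (0.17 ± 0.19) and Hoxc13 (0.08 ± 0.07 FPKM) had means under 1 FPKM, with Hoxd12 at 1.24 FPKM in WT4, and Hoxb13, the last gene of HoxB, had 1 count in the 6 WT libraries.

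**Figure D1:**
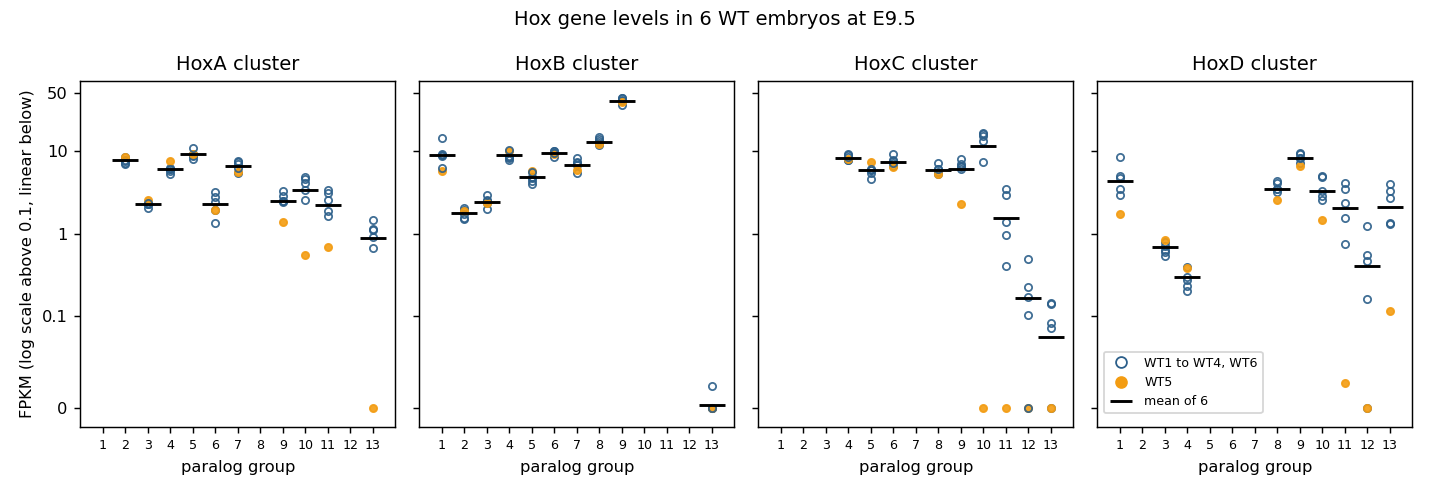
Deposited FPKM of 38 Hox genes in the 6 WT embryos, by paralog group and cluster; points are embryos (WT5 filled), bars the mean of 6, and the vertical axis is logarithmic above 0.1 FPKM and linear below. Hoxb9 reached a mean of 40.4 FPKM, and WT5 lies low from group 9 on in HoxA, HoxC and HoxD and within the others at Hoxb9.

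The clusters differed in shape. In HoxB the level was low at Hoxb2 (1.77 ± 0.22 FPKM) and Hoxb3 (2.44 ± 0.30 FPKM), between 4.87 (Hoxb5) and 12.98 FPKM (Hoxb8) on average from Hoxb4 to Hoxb8, and highest at Hoxb9, the last gene before the distant Hoxb13. In HoxC the level held at 5.87 to 11.4 FPKM on average from Hoxc4 to Hoxc10 and dropped to 1.53 ± 1.39 FPKM at Hoxc11. In HoxD the middle genes were low, Hoxd3 and Hoxd4 lying under Hoxd1 (4.34 ± 2.29 FPKM) on 1 side and Hoxd8 (3.51 ± 0.62 FPKM) on the other. In HoxA the means lay between 2.20 FPKM (Hoxa11) and 9.15 FPKM (Hoxa5) for all genes but Hoxa13, at 0.88 ± 0.50 FPKM. By mean FPKM the best expressed member of a paralog group was a HoxB gene in groups 1, 3, 4, 6, 7, 8 and 9, a HoxA gene in groups 2, 5 and 11, Hoxc10 in group 10, and a HoxD gene in groups 12 and 13. Some of these ranks were close, with overlapping ranges. Hoxb3 (2.44) lay near Hoxa3 (2.30), Hoxb4 (8.89) near Hoxc4 (8.33), Hoxb7 (6.83) near Hoxa7 (6.50) and Hoxa11 (2.20) near Hoxd11 (2.03 FPKM).

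By median, WT embryos varied less in the front of the clusters than at the rear end, with a wide range in each class. The coefficient of variation of CPM over the 6 WT embryos had a median of 12.7% over the 12 tested genes of groups 1 to 4, 13.7% over the 11 of groups 5 to 8 and 46.6% over the 12 of groups 9 to 13. Without WT5 these medians were 13.6%, 12.2% and 27.3%. The lowest values were those of Hoxb6 (6.37%), Hoxa3 (6.87%), Hoxc4 (7.09%), Hoxa2 (7.33%) and Hoxb9 (7.54%). The highest value among the tested genes was that of Hoxc11 (91.1%). Values reached 52.6% in groups 1 to 4 and 29.2% in groups 5 to 8. At the very front Hoxd1 (52.6%) and Hoxb1 (34.4%) varied widely, while Hoxd9 in the rear class was at 13.3%.

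The cluster sums of the KO embryos spread far more than those of the WT embryos. Summed HoxB was 60.1, 226.9 and 283.9 CPM (lowest, median and highest) in KO and 225.3, 241.7 and 258.2 CPM in WT. HoxD, the lowest cluster, had 5.72, 46.5 and 77.4 CPM in KO and 32.0, 62.5 and 80.3 CPM in WT. The lowest KO value came from KO2 in all 4 clusters, with KO3 next to it.

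By position along the clusters the embryos parted at the rear. Groups 1 to 4 summed to 103.3, 148.1 and 192.9 CPM in KO and 137.9, 142.7 and 176.4 CPM in WT (lowest, median and highest). Groups 5 to 8 gave 29.3, 150.4 and 186.6 CPM in KO and 171.7, 175.5 and 189.7 CPM in WT. Groups 9 to 13 gave 0.409 CPM in KO2, 5.44 CPM in KO3, 104.5 CPM in KO6 and 255.2 to 271.1 CPM in KO1, KO4 and KO5, against 134.0 CPM in WT5 and 202.1 to 262.2 CPM in the other WT embryos. As a share of all Hox counts, groups 9 to 13 made up 0.307% in KO2 and 3.28% in KO3, 27.7% in KO6 and 41.7% to 44.1% in KO1, KO4 and KO5, against 30.1% in WT5 and 37.9% to 44.5% in the other WT embryos.

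**Figure D2:**
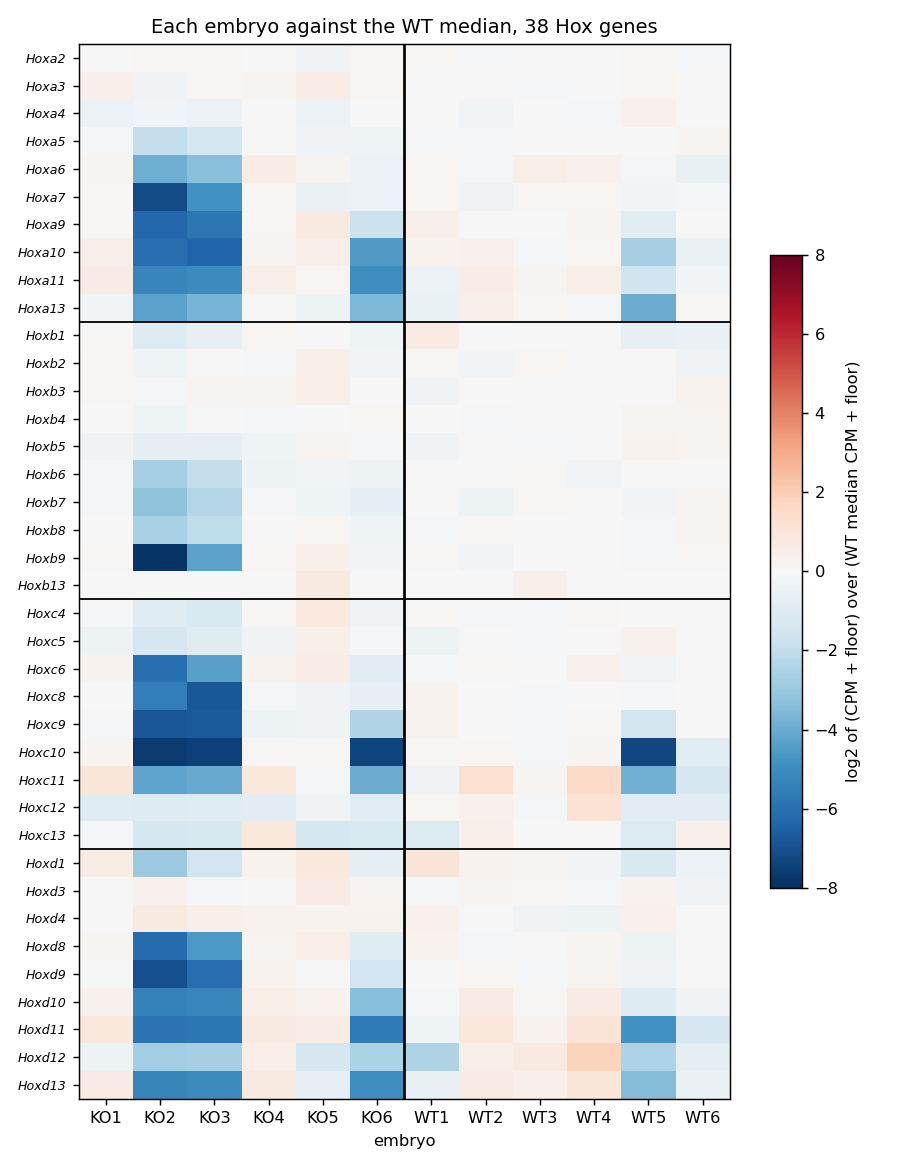
Log2 ratio of each embryo to the WT median for 38 Hox genes, ordered by cluster and paralog group, with KO embryos left of the line and WT embryos right of it; the floor of 3 counts was added to both sides of the ratio. KO2 and KO3 are low from groups 6 to 8 on, depending on the cluster, and KO6 and WT5 from groups 9 to 11 on in HoxA, HoxC and HoxD.

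Each embryo was then followed along each cluster as the log2 ratio of its CPM to the WT median, with a floor of 3 counts added on both sides, over the 34 genes with a WT median of 1 CPM or more. WT embryos enter their own median, so their ratios are drawn towards 0. A gene was taken as low at a ratio below -2. In KO2 21 genes were low, in KO3 19, in KO6 9 and in WT5 6; in the other 8 embryos none was. The break in KO2 fell at group 6 in HoxA, HoxB and HoxC and at group 8 in HoxD, where Hoxd1 was low as well (-2.96) and Hoxd3 was not (0.31). In KO3 it fell at group 6 in HoxA and HoxC, 7 in HoxB and 8 in HoxD, which has no genes between Hoxd4 and Hoxd8. In KO6 the break came at group 10 in HoxA and HoxD and at group 9 in HoxC, and in WT5 at group 10 in HoxA and HoxC and at group 11 in HoxD. In HoxB neither KO6 nor WT5 had a low gene. The last HoxB gene scored was Hoxb9, since HoxB has no genes between it and Hoxb13, whose WT median was under 1 CPM. A break past group 9 could therefore not be seen in HoxB.

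Counts fell off within a few genes at the break. In KO2 Hoxa4 had 186 counts (ratio -0.19), Hoxa5 97 (-1.93), and Hoxa6 and Hoxa7 none. In HoxC of KO2, Hoxc4 had 235 counts (-0.995), Hoxc5 156 (-1.36) and Hoxc6 3 (-6.03). In KO3 Hoxa4 had 136 counts (-0.48), Hoxa5 127 (-1.39), Hoxa6 1 (-3.34) and Hoxa7 10 (-4.87), while the HoxC ratios of KO3 were -1.19, -0.99 and -4.37 at Hoxc4, Hoxc5 and Hoxc6. The median ratio over the genes of groups 1 to 4, 5 to 8 and 9 to 13 was -0.32, -3.22 and -6.02 in KO2 and -0.06, -2.34 and -5.51 in KO3. In KO6 it was 0.05, -0.45 and -3.78, and in WT5 0.06, -0.12 and -2.13. Some of these ratios rest on no count at all. Of the 12 genes of groups 9 to 13 that enter them, 9 had none in KO2, 8 in KO3, 5 in KO6 and 3 in WT5, and of the 11 genes of groups 5 to 8, 3 had none in KO2 (Hoxa6, Hoxa7 and Hoxd8) and 1 in KO3 (Hoxc8). No count allows up to 0.136 CPM per gene in KO2, 0.152 CPM in KO3, 0.165 CPM in KO6 and 0.175 CPM in WT5, so that such a ratio is set by the floor and the WT median and says nothing of how far below the gene lay.

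**Figure D3:**
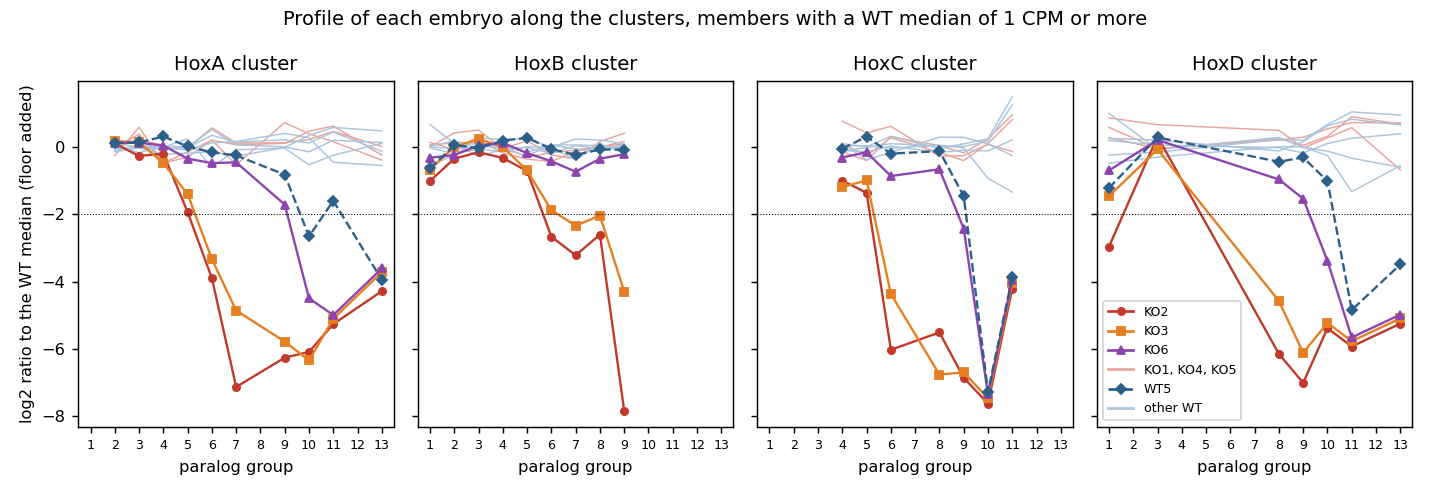
Log2 ratio to the WT median along each cluster, by paralog group, for plotted members with a WT median of 1 CPM or more; KO2, KO3, KO6 and WT5 carry symbols, the other KO embryos are pale red and the other WT embryos pale blue lines, and the dotted line marks -2. KO2 and KO3 leave the band near group 5 to 6, and KO6 and WT5 fall near group 9 to 10 in HoxA, HoxC and HoxD. In HoxB, where Hoxb9 is the last gene plotted, KO6 and WT5 stay above -2. KO6 lies under the pale lines there at Hoxb7 (-0.73) and Hoxb8 (-0.34).

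In groups 6 to 8 the HoxB gene had the highest ratio of its paralogs in KO2 and KO3. In group 8 the ratio of Hoxb8 was -2.60 in KO2 and -2.04 in KO3, against -5.52 and -6.77 for Hoxc8 and -6.16 and -4.58 for Hoxd8. In group 7 Hoxb7 was at -3.22 and -2.34, against -7.14 and -4.87 for Hoxa7. In group 6 Hoxb6 was at -2.66 and -1.88, against -3.90 and -3.34 for Hoxa6 and -6.03 and -4.37 for Hoxc6. Hoxb9 was at -7.85 in KO2 with 7 counts and -4.30 in KO3 with 102 counts. The values of Hoxa6, Hoxa7 and Hoxd8 in KO2 and of Hoxc8 in KO3 are those of genes without a count. In KO6 and WT5 the genes of groups 6 to 8 lay between -0.96 and -0.05. In group 9 Hoxb9 was at -0.21 in KO6 and -0.07 in WT5, while Hoxa9, Hoxc9 and Hoxd9 were at -1.71, -2.42 and -1.53 in KO6 and at -0.82, -1.45 and -0.31 in WT5. These are single embryos, so the differences between paralogs are descriptions without a test.

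Genes of groups 1 to 4, which pattern the hindbrain, the pharyngeal arches and the neck, went both ways. Hoxb1, which sets the identity of rhombomere 4, had 10.3, 18.9 and 22.9 CPM in KO and 13.4, 20.8 and 33.4 CPM in WT (lowest, median and highest of 6). The groups overlapped, with KO2 and KO3 the lowest of the 12 embryos and WT1 the highest, and the log2 fold change of KO over WT was -0.23 (SE 0.24, edgeR adjusted p = 0.627). Hoxa2, the selector of the second pharyngeal arch, had 11.5, 14.2 and 15.6 CPM in KO and 12.5, 13.8 and 15.0 CPM in WT (log2 change 0.02, SE 0.09, edgeR adjusted p = 0.913). Hoxb3, an anterior neck gene, had 9.31, 11.6 and 14.8 CPM in KO and 8.53, 10.4 and 12.6 CPM in WT (log2 change 0.17, SE 0.12, edgeR adjusted p = 0.457). In both genes the groups overlapped. Hoxb4, a gene of the neck vertebrae, had 17.8, 21.9 and 24.3 CPM in KO and 20.2, 22.2 and 26.2 CPM in WT, again with overlapping groups (log2 change -0.10, SE 0.09, edgeR adjusted p = 0.552).

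Hoxd4 had the highest fold change of these groups, at low counts (9 to 29 per library), with 0.722, 0.952 and 1.32 CPM in KO and 0.517, 0.742 and 1.01 CPM in WT and overlapping groups (log2 change 0.36, SE 0.23, edgeR adjusted p = 0.418). Hoxa3, needed for thymus and parathyroid, had 11.5, 15.9 and 21.0 CPM in KO and 12.4, 13.9 and 15.3 CPM in WT. Of the KO embryos 4 lay above every WT embryo and KO2 lay below all of them, and the log2 fold change was 0.23 (SE 0.12, edgeR adjusted p = 0.332). Hoxa4, which lies next to it and shares part of its listed span, leaned the other way, with 6.91, 7.71 and 10.01 CPM in KO and 8.31, 9.68 and 12.1 CPM in WT (log2 change -0.26, SE 0.13, edgeR adjusted p = 0.310); 3 KO embryos, KO1, KO3 and KO5, were below all WT. Both values are uncertain in their split of reads, since the span of Hoxa3 covers Hoxa4, Hoxa5 and Hoxa6. Hoxd1 had the lowest ratios of groups 1 to 4 in KO2 and KO3, with 0.863 CPM in KO2 and 2.69 CPM in KO3 against 4.68 to 14.1 CPM in the remaining KO embryos and 3.20 (WT5) to 15.6 CPM in WT. Hoxc4 peaked in KO5 at 36.7 CPM, and so did Hoxc5 at 24.7 CPM, each the highest of the 12 embryos.

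Genes of groups 5 to 8, used in the lower neck and thorax, were all below 0 in the comparison of KO with WT, with the lowest values in KO2 and KO3. Hoxb5, a gene of the trunk neural tube and gut, had 8.09, 10.6 and 15.3 CPM in KO and 11.2, 13.3 and 16.2 CPM in WT. In it 4 of 6 KO embryos lay below all WT embryos, and it had the smallest p of all Hox genes (log2 change -0.34, SE 0.15, edgeR adjusted p = 0.272). Hoxa5, required in the lung and at the border of neck and thorax, had 4.41, 13.8 and 16.9 CPM in KO and 15.2, 17.2 and 20.4 CPM in WT, with 4 KO embryos below all WT (log2 change -0.55, SE 0.27, edgeR adjusted p = 0.298). Hoxb6, a gene of the thoracic trunk, had 2.86, 14.04 and 16.8 CPM in KO and 16.5, 18.9 and 19.8 CPM in WT. All KO embryos but KO1 were below the lowest WT embryo (log2 change -0.70, SE 0.34, edgeR adjusted p = 0.306), and with KO2 and KO3 set aside the log2 fold change was -0.29 (SE 0.09, edgeR adjusted p = 0.312).

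Hoxb7, a further trunk gene, had 1.05, 7.50 and 10.3 CPM in KO and 8.31, 10.9 and 12.9 CPM in WT (log2 change -0.74, SE 0.43, edgeR adjusted p = 0.383). KO2, KO3 and KO6 lay below all WT embryos, and the other 3 KO embryos lay within the WT range. Hoxb8 had 5.45, 30.2 and 38.0 CPM in KO and 30.7, 33.8 and 39.2 CPM in WT, where the same 3 KO embryos lay below all WT (log2 change -0.50, SE 0.41, edgeR adjusted p = 0.533). The remaining tested genes of these groups were Hoxa6, Hoxa7, Hoxc5, Hoxc6, Hoxc8 and Hoxd8, with log2 fold changes of -0.84 (Hoxc8) to -0.33 (Hoxc5). In Hoxc8, which shapes thoracic vertebrae and brachial motor neurons, 5 of 6 KO embryos lay below the lowest WT embryo, KO4 barely. Hoxa7 was at 0 in KO2 and at 0.508 CPM in KO3, against 13.3 to 20.8 CPM in the remaining KO embryos and 15.8 to 21.5 CPM in WT.

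**Figure D4:**
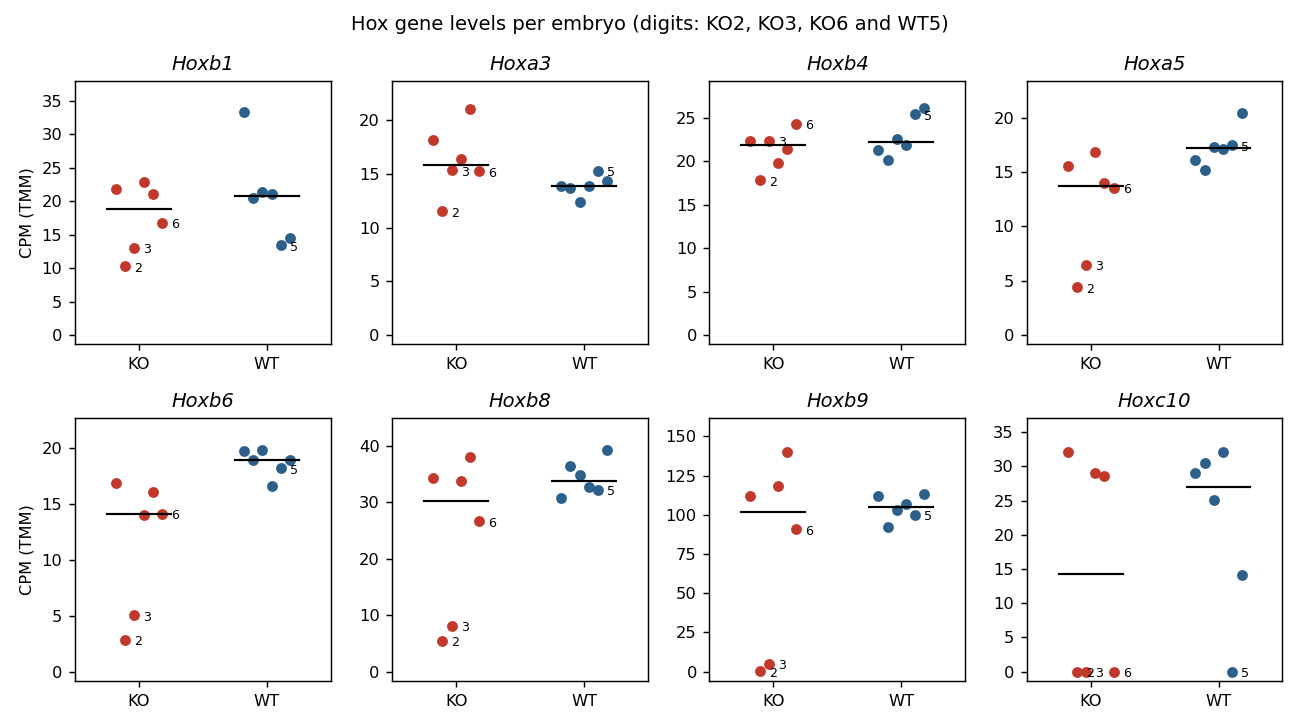
TMM-scaled CPM of 8 Hox genes in each embryo, KO left and WT right in each panel; points are embryos, bars the group median, and digits mark KO2, KO3, KO6 and WT5. In Hoxb9 KO2 and KO3 lie at 0.318 and 5.18 CPM below all other embryos, and in Hoxc10 KO2, KO3, KO6 and WT5 lie at 0.

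Group 9 genes mark the thoracic to lumbar trunk. Hoxb9, the most abundant Hox transcript of these embryos, had 0.318 CPM in KO2, 5.18 CPM in KO3 and 90.8 to 140.1 CPM in the remaining KO embryos, against 92.1, 105 and 113 CPM in WT (lowest, median and highest). KO5 was the highest of all, the groups overlapped, and the log2 fold change was -0.43 (SE 0.81, edgeR adjusted p = 0.814). Hoxa9, known for its role in blood progenitors, had 0.0454, 9.56 and 23.1 CPM in KO and 7.80, 13.9 and 18.5 CPM in WT. Hoxc9, which sets thoracic motor neuron identity, had 0, 7.36 and 14.02 CPM in KO and 5.65, 15.8 and 19.3 CPM in WT, and its log2 fold change of -1.07 (SE 0.88, edgeR adjusted p = 0.534) was the lowest of the 35 tested Hox genes. In both genes WT5 was apart from the other WT embryos. Hoxd9 was at 0 in KO2 and 0.102 CPM in KO3, against 5.94 to 21.6 CPM in the other KO and 14.1 to 20.2 CPM in WT.

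Promoters were read for the members that were low together, to show the letters upstream of genes past the break in KO2 and KO3. RefSeq promoter sequences (250 bases before to 50 after the start site, GRCm38.p6) were at hand for 22 of the 39 members, 24 promoters in all; among those not matched were Hoxa4, Hoxb2, Hoxb3, Hoxb5, Hoxb6, Hoxb7, Hoxb9, Hoxb13, Hoxc5, Hoxc6, Hoxc8, Hoxc9, Hoxc10, Hoxc11, Hoxc12 and Hoxc13. The motif TTTATG, the core of sites that caudal-type (Cdx) factors bind, was sought on both strands (CATAAA on the printed one). It lay in 5 of the 24 Hox promoters (20.8%) and in 3893 of all 32851 promoters of this length (11.9%). The 5 were those of Hoxa7, Hoxb8, Hoxd3, Hoxd4 and 1 of the 2 Hoxd11 promoters. By position, the motif lay in 2 of 8 promoters of groups 1 to 4, 2 of 5 of groups 5 to 8 and 1 of 11 of groups 9 to 13. Groups 9 to 13 had the lowest median ratios in KO2 and KO3. Whether the motif goes with the low genes was not tested. Neither group 9 promoter at hand held it. The promoters of Hoxa7 and Hoxb8 (chosen after the search, as members of the part that was low in KO2 and KO3 that hold the motif) and of Hoxa9 and Hoxd9 follow, 5′ to 3′ on the strand of the gene, with the motif in capitals: 2 copies in Hoxa7 (chr6:52218524-52218823, minus strand), 1 in each direction in Hoxb8 (chr11:96281655-96281954, plus strand), and none in Hoxa9 (chr6:52227321-52227620, minus strand) and Hoxd9 (chr2:74697513-74697812, plus strand). A match is a run of letters and not evidence of binding.
Hoxa7: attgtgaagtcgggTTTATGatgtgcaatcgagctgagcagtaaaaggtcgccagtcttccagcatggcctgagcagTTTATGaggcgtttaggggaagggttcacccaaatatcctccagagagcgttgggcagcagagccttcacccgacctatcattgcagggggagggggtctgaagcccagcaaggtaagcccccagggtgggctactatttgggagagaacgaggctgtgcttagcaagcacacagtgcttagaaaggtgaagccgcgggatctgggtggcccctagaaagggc
Hoxb8: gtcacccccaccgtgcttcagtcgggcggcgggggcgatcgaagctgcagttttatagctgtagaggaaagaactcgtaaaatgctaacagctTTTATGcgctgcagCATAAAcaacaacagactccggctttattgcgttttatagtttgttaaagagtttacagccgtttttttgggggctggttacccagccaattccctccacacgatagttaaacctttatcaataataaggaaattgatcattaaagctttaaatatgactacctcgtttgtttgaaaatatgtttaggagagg
Hoxa9: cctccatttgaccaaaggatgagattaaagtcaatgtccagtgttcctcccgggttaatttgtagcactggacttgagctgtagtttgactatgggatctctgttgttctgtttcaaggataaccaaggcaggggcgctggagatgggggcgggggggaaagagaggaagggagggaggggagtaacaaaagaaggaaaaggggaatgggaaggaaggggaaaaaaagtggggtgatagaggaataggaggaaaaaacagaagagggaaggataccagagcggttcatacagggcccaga
Hoxd9: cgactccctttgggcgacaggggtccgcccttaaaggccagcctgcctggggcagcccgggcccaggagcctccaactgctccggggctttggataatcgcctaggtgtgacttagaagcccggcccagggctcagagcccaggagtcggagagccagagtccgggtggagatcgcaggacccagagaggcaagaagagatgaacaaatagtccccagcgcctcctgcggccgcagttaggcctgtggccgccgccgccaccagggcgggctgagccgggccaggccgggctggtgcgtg

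Groups 10 to 13, the genes of lumbar and sacral vertebrae, hindlimb, digits and tail, varied widely from embryo to embryo, in part down to no count. Hoxc10, a gene of the lumbar region and hindlimb motor neurons, had no count in KO2, KO3, KO6 and WT5, 28.6 to 32.1 CPM in the remaining KO embryos and 14.1 to 32.1 CPM in the other WT embryos. Its log2 fold change was -0.54 (SE 1.25, edgeR adjusted p = 0.846). Hoxa11, needed for forearm and kidney, had 0, 2.87 and 7.99 CPM in KO and 1.57, 5.11 and 7.78 CPM in WT, with no count in KO2, KO3 and KO6 and the lowest WT value in WT5 (log2 change -0.55, SE 0.99, edgeR adjusted p = 0.802). Hoxd13, a digit gene, had 0, 1.56 and 8.46 CPM in KO and 0.291, 5.07 and 9.996 CPM in WT, lowest again in WT5 (log2 change -0.70, SE 1.09, edgeR adjusted p = 0.768). Hoxd12, the best expressed member of group 12, had 0, 0.113 and 1.25 CPM in KO and 0, 0.799 and 3.16 CPM in WT and was too low to be tested, as were Hoxb13, Hoxc12 and Hoxc13. Among the WT embryos WT6 also leaned low here, with log2 ratios of -1.33 at Hoxc11 and -1.32 at Hoxd11, and WT1 had 6.50 CPM of Hoxd11 against 9.90 to 17.2 CPM in WT2, WT3 and WT4.

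The fit across all genes asked whether the genotypes differ. By edgeR's quasi-likelihood test with Benjamini-Hochberg adjustment 0 of 35 tested Hox genes passed 0.05 (0.0203% of 14804 genes tested did). At an unadjusted p of 0.05 or less there was 1, Hoxb5, which was lower, against 17.9% of all genes in either direction, 7.72% lower and 10.1% higher. DESeq2 also called 0 (2.54% of all genes), with 2 at an unadjusted p of 0.05 or less, Hoxa5 and Hoxb5 (18.8% of all genes). limma voom with sample quality weights called 0 (0.358% of all genes), with 8 at an unadjusted p of 0.05 or less (16.5% of all genes). No Hox gene had all KO embryos below all WT embryos (1.74% of all genes) or all above (1.09%).

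In direction 28 of the 35 log2 fold changes were below 0 (48.4% of all genes were, and 51.6% above), with a median of -0.44 beside 0.01 over all genes. Groups 1 to 4 had 7 above and 5 below 0 (median 0.03), groups 5 to 8 all 11 below (median -0.50) and groups 9 to 13 all 12 below (median -0.62). These medians moved with the embryos and the tool: for groups 5 to 8 the median was -0.29 without KO2, -0.32 without KO3, -0.89 by voom and -0.90 with the replicate block, and for groups 9 to 13 it was -0.35 without KO2, -0.36 without KO3, -0.97 without KO1 or without KO4, -2.26 by voom and -1.49 with the replicate block. By cluster the medians were -0.47 in HoxA (3 above, 8 below), -0.34 in HoxB (2 above, 7 below), -0.54 in HoxC (7 below) and -0.40 in HoxD (2 above, 6 below). With KO2 and KO3 set aside the Hox median was -0.02, with 17 above and 19 below 0, and the medians of the 3 position classes were 0.19, -0.15 and -0.11; 0 were called by edgeR (0.02% of all genes), with 2 at an unadjusted p of 0.05 or less, Hoxa3 and Hoxb6 (14.4% of all genes). With KO2, KO3 and KO5 set aside the median was -0.04, with 11 above and 25 below 0; 0 were called (0.238% of all genes), with 3 at an unadjusted p of 0.05 or less, Hoxa3, Hoxb5 and Hoxb6 (11.4% of all genes). KO2, KO3, KO6 and WT5 were the embryos with low genes along the clusters in these same data. The Hox median of a fit without them is therefore shifted by the choice itself, and such fits are descriptions and not tests. With KO2, KO3, KO6 and WT5 all set aside, leaving 3 KO and 5 WT embryos, the median was 0.09, with 23 above and 13 below 0. In that fit Hoxb9 was at 0.23 (SE 0.09), Hoxc6 at 0.35 (SE 0.13), Hoxa3 at 0.44 (SE 0.11), Hoxb6 at -0.27 (SE 0.11) and Hoxc9 at -0.34 (SE 0.12), each with an edgeR adjusted p of 0.336, and 0 Hox genes were called by edgeR (0.0199% of all genes), with these 5 at an unadjusted p of 0.05 or less (14.3% of all genes).

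**Figure D5:**
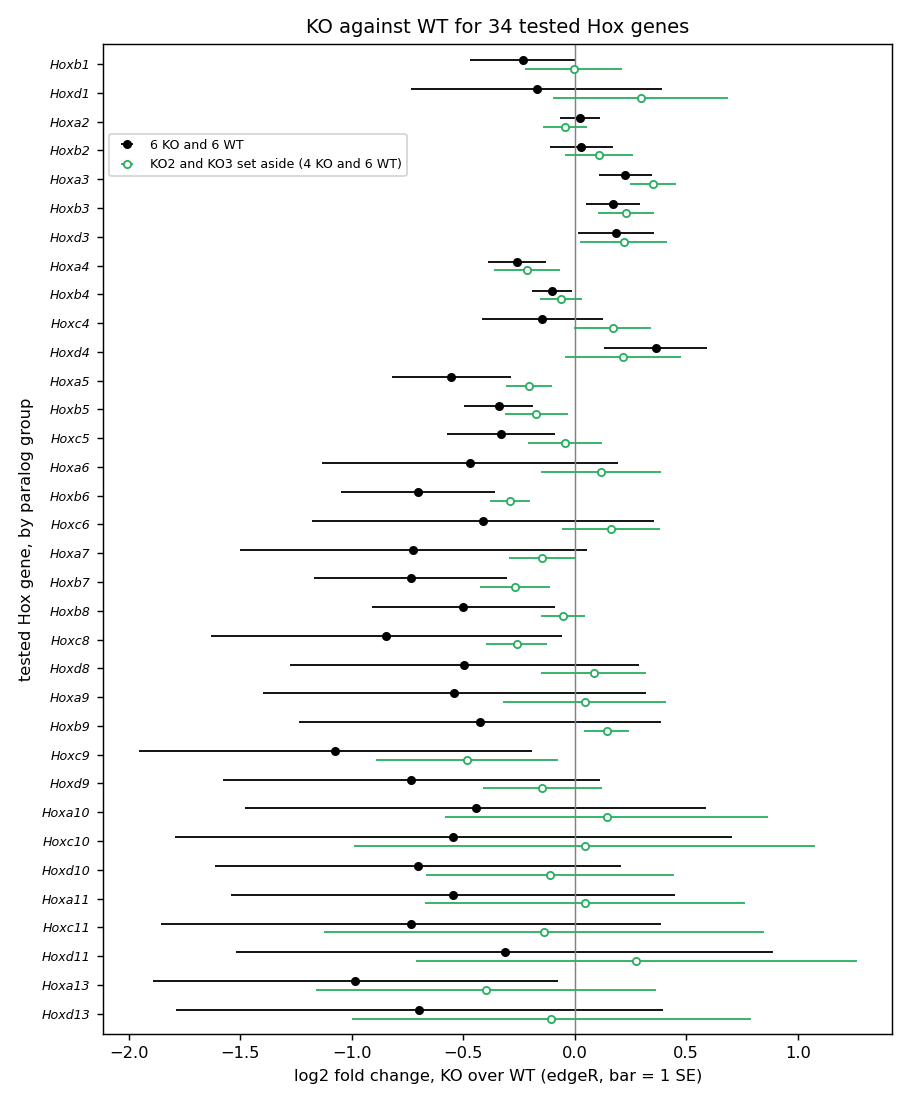
Log2 fold change of KO over WT with 1 standard error for 34 tested Hox genes, ordered by paralog group from top to bottom, with all 12 embryos (black) and with KO2 and KO3 set aside (green). The black points lie below 0 for every gene of groups 5 to 13, and with KO2 and KO3 set aside the points lie on both sides of 0.

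Genes beside the clusters were read in the same fit, as the nearest 2 protein-coding neighbours on each side and any inside the span. Of 19, 15 were tested, 8 were above and 7 below 0 (median 0.00), and 0 were called (0.0203% of all genes were). At an unadjusted p of 0.05 or less there were 3 (5730596B20Rik, Cbx5 and Mtx2), beside 17.9% of all genes. Evx1 and Evx2, even-skipped homologs that sit beyond Hoxa13 and Hoxd13 and are used in the hind end, were lowest in embryos that were also low in posterior Hox genes. Evx1 had 0.363 CPM in KO2, 0.356 CPM in KO3, 0.605 CPM in KO6 and 10.01 to 13.8 CPM in the remaining KO embryos, against 0.699 CPM in WT5 and 2.93 to 19.5 CPM in the other WT embryos (log2 change -0.54, SE 0.95, edgeR adjusted p = 0.795). Evx2 had no count in KO2, KO3 and WT5 (log2 change -0.22, SE 0.79, edgeR adjusted p = 0.908). The next genes out at these ends did not share that pattern: Hibadh had 54.7 to 77.0 CPM in KO and 52.0 to 55.7 CPM in WT, and Lnpk, beyond Evx2, 29.3 to 35.6 CPM in KO and 26.9 to 32.9 CPM in WT.

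At the anterior ends Skap2 was at 20.8 CPM in KO2 and 20.9 CPM in KO3, below the other KO embryos (31.7 to 35.4 CPM) and WT (25.6 to 38.8 CPM), with a log2 fold change of -0.18 (SE 0.15, edgeR adjusted p = 0.534). Snx10, Skap1, Snx11, Smug1, Cbx5, Mtx2 and Hnrnpa3 had log2 fold changes of -0.34 (Snx11) to 0.14 (Smug1), and Calcoco1 and Atp5g2, beyond Hoxc13, of 0.35 and 0.00. Cbx5, a heterochromatin protein, had 767 to 826 CPM in KO and 710.1 to 752 CPM in WT, without overlap (all KO lay above all WT in 1.09% of all genes), a log2 fold change of 0.11 (SE 0.03, edgeR adjusted p = 0.177) that DESeq2 called (adjusted p = 0.0277). 5730596B20Rik, inside HoxA, had a log2 fold change of 0.50 (SE 0.21, edgeR adjusted p = 0.238).

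Of 43 genes of other biotypes inside the clusters, 28 had a count and 10 a WT mean of 1 CPM or more. In front of HoxA, Hotairm1, a noncoding RNA at the anterior end of the cluster, had 3.09 to 8.78 CPM in KO and 3.23 to 5.91 CPM in WT (log2 change 0.25, SE 0.21, edgeR adjusted p = 0.546). Hoxaas2, which overlaps Hoxa3 on the opposite strand, had 5.72, 8.08 and 16.6 CPM in KO and 4.94, 5.98 and 6.57 CPM in WT. In all KO embryos but KO2 it lay above every WT embryo, with the highest value in KO5 (log2 change 0.68, SE 0.21, edgeR adjusted p = 0.177). Gm15050 was at 1.52 to 2.78 CPM in KO and 1.09 to 1.79 CPM in WT, and Hoxb3os at 1.91 to 3.86 CPM in KO and 1.85 to 3.16 CPM in WT.

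Further back, Hoxb5os, which lies across Hoxb5 and Hoxb6 on the opposite strand, had 0.182 CPM in KO2, 1.47 CPM in KO3 and 10.01 to 29.5 CPM in the remaining KO embryos, against 9.78 to 27.1 CPM in WT. In KO2 the ratio of Hoxb5 was -0.71 and that of Hoxb6 -2.66. Hoxaas3 was at 0.772 CPM in KO2 and 1.27 CPM in KO3, against 2.26 to 12.3 CPM in the other KO and 2.10 to 17.3 CPM in WT. Hoxa11os had no count in KO2, KO3 and KO6 and 0.116 CPM in WT5. Gm53, between Hoxb9 and Hoxb13, had no count in KO2 and KO3, 0.110 CPM in KO6 and 0.408 CPM in WT5. Haglr had 2.09 to 8.05 CPM in KO and 2.75 to 5.61 CPM in WT, and Hoxd3os1 0.318 to 1.75 CPM in KO and 0.837 to 1.83 CPM in WT. The 11 tested genes of this kind had 4 log2 fold changes above and 7 below 0 (48.4% of all genes were below). Of them 0 were called, beside 0.0203% of all genes. The sources used here do not give the strand setting of the counting. For the 14 Hox rows that overlap a gene on the opposite strand, the reads of both cannot be told apart. Part of the span is shared with another Hox gene in 12 rows, 6 of them among those 14, and one such gene is Hoxc5, whose listed span overlaps Hoxc6, Hoxc8, Hoxc9 and Hoxc10. Of the 7 microRNA genes of the clusters Mir196a-1 had 79 counts over the 12 libraries, Mir10a 19 and the rest none.

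Regulators and partners of Hox proteins were read from fixed lists. The TALE cofactors, the Pbx, Meis and Pknox homeodomain proteins that bind DNA with Hox proteins, had 4 of 9 above and 5 below 0 (median -0.01). Meis3 was lowest, with 33.9, 38.1 and 41.3 CPM in KO and 38.1, 43.6 and 48.6 CPM in WT (log2 change -0.20, SE 0.07, edgeR adjusted p = 0.190). Polycomb and trithorax genes, which keep Hox genes off or on, had 15 of 22 above and 7 below 0 (median 0.06). Cbx7, a Polycomb subunit, had 2.56, 3.85 and 7.74 CPM in KO and 2.07, 2.56 and 3.46 CPM in WT (log2 change 0.75, SE 0.25, edgeR adjusted p = 0.188), highest in KO5. None of these genes passed the test, which 0.0203% of all genes did.

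The activators and posterior signals, 13 genes, had 4 above and 9 below 0 (median -0.16). Cdx4, a caudal-type factor of the tail bud that activates Hox genes, had no count in KO2 and KO3 and 0.495 CPM in KO6, against 21.9 to 27.2 CPM in the remaining KO embryos, 0.0582 CPM in WT5, 1.61 CPM in WT6 and 15.8 to 45.3 CPM in the other WT embryos. Cdx2 followed the same embryos, with 0.0454 CPM in KO2, 0 in KO3, 3.36 CPM in KO6 and 2.21 CPM in WT5, while Cdx1 was at 1.91 to 11.2 CPM in KO and 6.26 to 13.4 CPM in WT. T, which marks the primitive streak and tail bud, was at 1.18, 2.18 and 2.64 CPM in KO2, KO3 and KO6 and 0.931 CPM in WT5, against 10.3 to 13.3 CPM in the other KO and 1.97 to 20.2 CPM in the other WT embryos. Aldh1a2, the main maker of retinoic acid in the trunk, had 24.7 CPM in KO2 and 39.7 CPM in KO3, against 67.1 to 73.5 CPM in the other KO and 68.5 to 86.9 CPM in WT (log2 change -0.39, SE 0.23, edgeR adjusted p = 0.377). Gdf11, a signal of the trunk to tail transition, had 37.7 to 54.1 CPM in KO and 40.0 to 56.0 CPM in WT. Rarb, a retinoic acid receptor, had 12.6 to 27.3 CPM in KO and 12.4 to 16.3 CPM in WT.

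Head genes leaned to higher values. All 6 hindbrain segment genes were above 0 (median 0.22), led by Cyp26c1, an enzyme that breaks down retinoic acid, with 28.8, 36.8 and 57.9 CPM in KO and 21.5, 27.6 and 31.7 CPM in WT (log2 change 0.53, SE 0.15, edgeR adjusted p = 0.169; DESeq2 adjusted p = 0.0399). Of 10 forebrain and midbrain genes, which lie in front of every Hox domain, 8 were above and 2 below 0 (median 0.23). Six3, a factor of the anterior forebrain and eye, had 8.42, 14.2 and 21.1 CPM in KO and 7.64, 10.2 and 11.5 CPM in WT, with overlapping groups (log2 change 0.53, SE 0.18, edgeR adjusted p = 0.193). KO2 and KO3 had the highest values of Six3 and Otx2. The 3 hindlimb and rear body genes were all below 0, Tbx4 by the most (log2 change -1.39, SE 0.91, edgeR adjusted p = 0.435), and of the ParaHox and Meox genes the 2 tested, Meox1 and Meox2, were below 0 at -0.32 and -0.29. The counts at an unadjusted p of 0.05 or less were 2 of 6 hindbrain and 4 of 10 forebrain and midbrain genes, all higher, beside 10.1% of all genes. Polycomb and trithorax genes had 4 of 22 higher and 2 lower, and TALE cofactors 1 of 9 lower, beside 7.72% of all genes lower. The activators and posterior signals, the hindlimb and rear body genes and the ParaHox and Meox genes had 0.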

How the data were processed

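Total RNA of 12 whole embryos at E9.5, 6 KO and 6 WT, was sequenced and processed by a sequencing service for the authors. The authors deposited raw counts per gene and FPKM for each library, with gene positions; the build is GRCm38 per the submitters' processing notes, and on aligner, counter and strand: not given in the sources used here. The deposited table also holds the authors' own comparison (group means of normalised signal, log2 fold changes and p-values), which was not used. Library totals were 16675204 to 21917571 counts, so that 3 counts, taken as the floor, equal 0.136 to 0.179 CPM; such limits cover counting error only.

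Counts were filtered and scaled by TMM, and KO was tested against WT over all 14804 genes kept with edgeR 4.0.16 (quasi-likelihood, Benjamini-Hochberg) in R 4.3.3; standard errors are the log2 fold change over the square root of F. DESeq2 1.42.0, limma 3.58.1 (voom), other scalings and filters, a replicate block, each embryo left out and sets of embryos set aside were alternatives. All sets of embryos set aside were choices made after seeing the data. Scripts were tested on simulated data. The least different replicates, WT4 and WT5, gave a chi-square of 4.64 per gene, so no library was counted as a copy of another. Lowest, median and highest values were given for the best expressed member of each paralog group, the 6 members of smallest p and members with 1 library apart from its group, with tested flanking genes, noncoding genes of the clusters at a WT mean of 1 CPM or more and up to 3 genes of smallest p per list; other genes named (Hoxa7, Hoxc4, Hoxc5, Hoxc6, Hoxc8, Hoxd1, Hoxd4, Hoxd9, Hoxd11, Cdx1, Cdx2, Cdx4 and T) were chosen after their values were seen. The members and lists were chosen with earlier results of these data known. Sequences are RefSeq's (GRCm38.p6). A planned look at homeodomain proteins was not done. Counts and medians cover all members and lists, though values of a few of their genes are not reported here.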

Additional observations from a re-analysis of the deposited data

Results flagged for a closer look

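Over 70 groups of 6 embryos (35 tested Hox genes in KO and in WT), the lowest embryo stood apart from the others of its group in 6, and in each of them it was WT5. It had 7.80 CPM of Hoxa9, 1.80 CPM of Hoxa10, 0 CPM of Hoxa13, 5.65 CPM of Hoxc9, 0 CPM of Hoxc10 and 0.291 CPM of Hoxd13. Chance marks about 1 group in 20, and genes of 1 embryo are not independent. The measure is the gap to the next embryo over the range of the group, so embryos that are low together hide each other. In Hoxc10 the gap was 0 in KO, where KO2, KO3 and KO6 all had no count. The lack of marks in KO is therefore no sign that KO2 and KO3 lay with the others.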

How the results depend on the processing

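No Hox gene was called under any of the 22 alternatives; the smallest adjusted p of a Hox gene over them was 0.104 (voom). The Hox median of -0.44 was -0.68 to -0.23 with 1 embryo left out, -0.89 by voom, -0.02 with KO2 and KO3 set aside, -0.04 with KO2, KO3 and KO5 set aside and 0.09 with KO2, KO3, KO6 and WT5 set aside. The replicate numbers did not pair the embryos: same-numbered deviations correlated at 0.28, -0.32, -0.11, 0.20, -0.26 and -0.11, and 2 of 6 embryos matched their own number best. With the replicate block the Hox median was -0.90 and 0 were called (2 of 14804 genes were). In that fit 4 Hox genes had an unadjusted p under 0.05, and the share over all genes was not read. Over all genes edgeR called 3, DESeq2 376, voom 53, and edgeR 36 with KO2, KO3 and KO5 set aside. At a limit of -1 in place of -2, 24 genes were low in KO2, 23 in KO3, 11 in KO6, 10 in WT5 and 2 in WT6, and the first low group was 5 in HoxA and HoxC and 1 in HoxB and HoxD of KO2, 5, 6, 4 and 1 in HoxA, HoxB, HoxC and HoxD of KO3, 9 in HoxA, HoxC and HoxD of KO6, and 10, 9 and 1 in HoxA, HoxC and HoxD of WT5. At -3 the numbers of low genes were 18 in KO2, 17 in KO3, 8 in KO6 and 5 in WT5, and the first low group moved to 7 in HoxB and 8 in HoxD of KO2, 9 in HoxB of KO3, 10 in HoxC of KO6 and 13 in HoxA of WT5. The position class of groups 9 to 13 had 1 of 12 log2 fold changes above 0 without WT4 and 1 of 16 with no filter on low counts. Log2 fold changes that changed sign follow, and the cause was not tested. Under the alternative "DESeq2 Wald test" they were Lnpk -0.0023. Under the alternative "DESeq2 size factors in edgeR" they were Atp5g2 -0.0023, Lnpk -0.0035. Under the alternative "KO embryos 2 and 3 set aside" they were Hoxa2 -0.044, Hoxa6 0.12, Hoxa9 0.045, Hoxa10 0.14, Hoxa11 0.046, Hoxb9 0.14, Hoxc4 0.17, Hoxc6 0.16, Hoxc10 0.044, Hoxd1 0.30, Hoxd8 0.085, Hoxd11 0.28, Skap2 0.023, Evx1 0.020, Evx2 0.38, Hoxaas3 0.15, Hoxa11os 0.11, Hoxb5os 0.22, Hoxb3os -0.041, Gm53 0.27, Haglr 0.24. Under the alternative "KO embryos 2, 3 and 5 set aside" they were Hoxa6 0.10, Hoxb2 -0.030, Hoxb9 0.038, Hoxd1 0.075, Hoxd11 0.18, Hoxd13 0.067, Meox1 0.019, Calcoco1 -0.0066, Skap2 0.024, Evx2 0.36, Atp5g2 -0.075, Hoxaas3 0.077, Hoxa11os 0.13, Hoxb3os -0.031, Gm53 0.22. Under the alternative "KO embryos 2, 3 and 6 and WT embryo 5 set aside" they were Hoxa2 -0.085, Hoxa6 0.24, Hoxa9 0.22, Hoxa10 0.32, Hoxa11 0.27, Hoxb8 0.017, Hoxb9 0.23, Hoxc4 0.29, Hoxc5 0.058, Hoxc6 0.35, Hoxc10 0.19, Hoxc11 0.0065, Hoxd1 0.36, Hoxd8 0.24, Hoxd9 0.068, Hoxd10 0.12, Hoxd11 0.42, Hoxd13 0.055, Evx1 0.16, Evx2 0.41, Hoxd3os1 0.18, Hoxaas3 0.26, Hoxa11os 0.27, Hoxb5os 0.32, Hoxb3os -0.14, Gm53 0.44, Haglr 0.33. Under the alternative "limma voom with quality weights" they were Hoxb2 -0.040, Atp5g2 -0.054. Under the alternative "replicate block" they were Atp5g2 -0.0023. With 1 embryo left out the ranges were Atp5g2 -0.059 to 0.029, Evx2 -0.65 to 0.059, Haglr -0.32 to 0.087, Hnrnpa3 -0.066 to 0.021, Hoxa2 -0.010 to 0.074, Hoxaas3 -0.73 to 0.098, Hoxb2 -0.074 to 0.092, Hoxb3os -0.056 to 0.16, Hoxd1 -0.48 to 0.12, Hoxd11 -0.73 to 0.0066, Lnpk -0.040 to 0.018.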
